A study of Rattus norvegicus with 8 samples.

Results

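The 7 genes described here encode the orphan nuclear receptors SF-1 (*Nr5a1*) and LRH-1 (*Nr5a2*), the zinc finger factors GATA4 (*Gata4*) and GATA6 (*Gata6*), and 3 repressors, the atypical nuclear receptors DAX-1 (*Nr0b1*) and SHP (*Nr0b2*) and the zinc finger protein GIOT1 (*Giot1*). They were taken by symbol from a list of 7 names, and all 7 of the 7 were found, each with 1 probe set, among the 13915 named genes of the arrays. Rat granulosa cells (GCs), the somatic cells that surround the oocyte in the follicle and make estradiol, were cultured from the ovaries of 24-day-old female Sprague-Dawley rats, and their RNA was collected after 24 hr. of treatment. The controls carried an EGFP lentivirus, whose product, a green fluorescent protein, marks transduction only (n = 2 arrays). The FSH group carried that virus too and was given 100 ng/ml of FSH (n = 3). The PKA-CQR group carried instead a virus for a mutant catalytic subunit of protein kinase A that is active without cAMP, and received no FSH (n = 3). All cultures, controls included, were given testosterone as the substrate of aromatase and an equal dose of virus, so no group was free of virus.

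SF-1 and LRH-1 bind as monomers to one and the same DNA motif, close to the genes of steroid synthesis, and recruit coactivators there. DAX-1 and SHP have the ligand-binding fold of nuclear receptors but lack the usual DNA-binding zinc fingers, and they repress SF-1 and LRH-1 by occupying the surface that coactivators need. GATA4 and GATA6 bind GATA motifs in many of the same promoters and cooperate with SF-1 and LRH-1, while GIOT1 was first described as a gonadotropin-induced transcript of the rat ovary and carries a repressor domain of the Krüppel-associated box type. In the ovary, LRH-1 is a receptor typical of GCs, SF-1 is shared by GCs and theca cells, and FSH acts on GCs through cAMP and protein kinase A.

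Values are log2 signals as deposited, so a difference of 1 is a 2.00-fold change, and signals of different probe sets are not set against each other. A gene was called changed at a Benjamini-Hochberg adjusted p under 0.05 in limma, fitted to all 8 arrays and adjusted over the 13915 genes. Whether the arrays of groups overlap is given as a description only. The share of all genes without such overlap was not counted. Array medians lay between 8.37 and 8.44, and arrays of 1 group correlated at 0.993 to 0.997. Of the granulosa cell markers, 13 of 14 were measured (*Nr5a2* is among them), with a mean log2 signal of 10.13 to 10.24 in EGFP, 11.19 to 11.45 in FSH and 11.38 to 11.42 in PKA-CQR arrays. Of the 13, 9 (69.2%) rose with FSH and 7 (53.8%) with PKA-CQR, and 0 fell with either. *Amh*, *Amhr2*, *Inha*, *Inhba*, *Inhbb*, *Kitlg*, *Hsd17b1* and *Cyp19a1* are in this list and also among the target genes followed below. The 12 theca and stroma markers had means of 7.81 to 8.08, 7.19 to 7.35 and 7.51 to 7.81 in the same order, and FSH lowered 4 and raised 1 of them while PKA-CQR lowered 2 and raised 1. The 8 smooth muscle and pericyte markers had means of 6.78 to 7.04, 6.43 to 6.44 and 6.50 to 6.64, and 3 fell with FSH and 2 with PKA-CQR. The 10 measured macrophage and leukocyte markers had means of 6.53 to 6.68, 6.83 to 6.99 and 6.53 to 6.78, and 4 rose and 1 fell with FSH. The part of other cell types in the results was not tested, and in RNA from whole cultures fewer cells of a type and less RNA per cell cannot be told apart.

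The deviations of EGFP replicate 2 from the group mean ran against those of the arrays that share its number. Because EGFP has 2 arrays, the deviations of EGFP replicate 1 are the same with the sign turned. The correlations that follow therefore hold for EGFP replicate 1 with the opposite sign, and they cannot single out 1 EGFP array. Over all genes, the deviations of EGFP replicate 2 correlated at -0.27 with those of FSH replicate 2 and at -0.32 with those of PKA-CQR replicate 2, against 0.52 with FSH replicate 3 and 0.41 with PKA-CQR replicate 3. The log2 signal of the 3′ probe set of beta-actin minus that of the 5′ probe set, a measure of RNA integrity, was also highest in those 3 arrays within their groups, at 1.53 in EGFP replicate 2, 1.88 in FSH replicate 3 and 1.66 in PKA-CQR replicate 3, with 1.02 to 1.45 in the other 5 arrays. Values without 1 of these arrays are given where they move a result. A fit with this beta-actin difference as a covariate, and a fit that blocks by culture with EGFP replicate 2 placed among the replicate 3 arrays, were chosen after seeing the data. Both follow this pattern of deviations and take up part of the spread within groups, so calls gained under them are no independent support.

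FSH raised 5 of the 7 genes, *Nr5a1*, *Nr5a2*, *Gata4*, *Nr0b2* and *Giot1*, by 2.27- to 5.73-fold and lowered *Nr0b1* 6.05-fold, whereas *Gata6* was not called. Of all genes, 13.4% rose and 12.1% fell with FSH. PKA-CQR raised *Nr5a1*, *Gata4* and *Giot1*, 3 of the 7, by 2.05- to 6.04-fold and lowered none of the 7 at this threshold. At an unadjusted p under 0.05, 5 were higher, *Nr5a2* and *Nr0b2* included, and 1, *Nr0b1*, was lower. Of all genes, 6.48% rose and 6.02% fell with PKA-CQR. The EGFP arrays are shared by both comparisons, so their values are not independent. Between PKA-CQR and FSH the test called *Nr0b1* alone, with 1 of the 7 genes higher and 0 lower in PKA-CQR (1 lower, *Nr0b2*, at an unadjusted p under 0.05), where 3.95% of all genes were higher and 2.96% were lower.

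**Figure D1:**
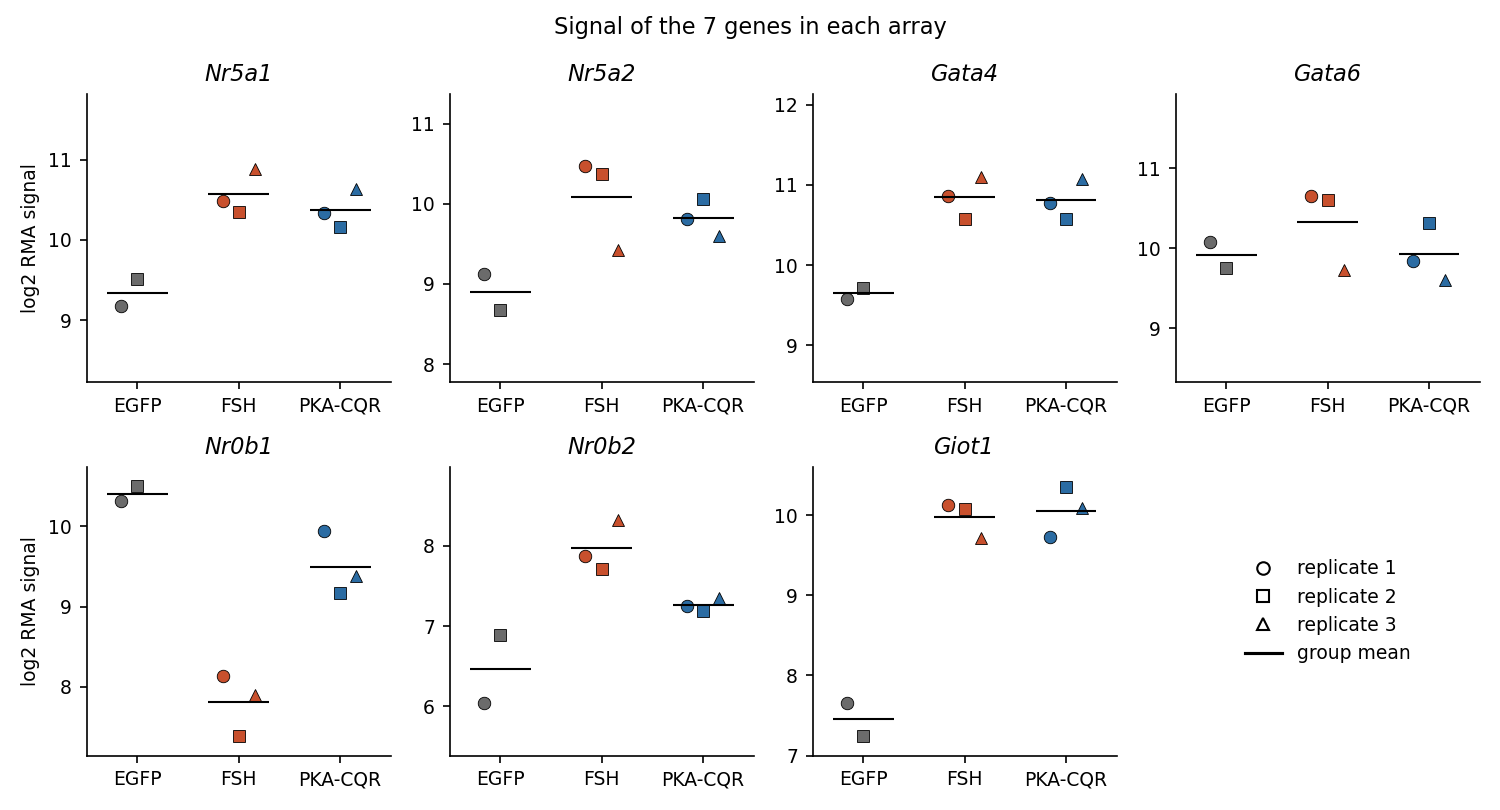
Log2 RMA signal (vertical axes, each spanning the same number of log2 units) of the 7 genes in every array, by group, with the replicate number as the symbol and the group mean as a line. *Nr0b1* lies between 10.31 and 10.5 in EGFP arrays, 7.38 and 8.13 in FSH arrays and 9.17 and 9.94 in PKA-CQR arrays. The treated and EGFP arrays of *Gata6* overlap.

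*Nr5a1* (probe set 1393286_at, Entrez 83826) encodes SF-1, which drives the cholesterol side-chain cleavage enzyme and aromatase genes. Its log2 signal was 9.17 and 9.51 in the EGFP arrays, 10.48, 10.35 and 10.88 in the FSH arrays and 10.33, 10.16 and 10.63 in the PKA-CQR arrays. Every treated array lay above both EGFP arrays, and the FSH and PKA-CQR arrays overlapped. *Nr5a1* rose 2.34-fold with FSH (log2 change 1.23 ± 0.19 SE, adjusted p = 0.00162) and 2.05-fold with PKA-CQR (1.03 ± 0.19, adjusted p = 0.00819). The call with PKA-CQR was lost when EGFP replicate 1 was left out (adjusted p = 0.0795). Between PKA-CQR and FSH the log2 difference was -0.19, with a 95% interval of -0.58 to 0.19 (adjusted p = 0.649), which spans ratios of 0.669 to 1.14.

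The region from 250 bases before to 50 bases after the annotated start of a gene was read for 6 of the 7 genes from RefSeq promoter sequences of the rat build GRCr8. It was searched on both strands for AAGGTCA, the half-site that SF-1 and LRH-1 bind, AGATAA, the core of a motif for the GATA factors, TGACG, a half-site of the cAMP response element (CRE), CACGTG, an E-box, and GGGCGG, an Sp1 box. Of the 33469 rat promoters of this length, 4.61% hold the NR5A half-site, 11.6% the GATA core, 21.2% the CRE half-site, 6.42% the E-box and 33.1% the Sp1 box. The start region of *Nr5a1* (chr3:42895997-42896296, minus strand), shown because SF-1 is the central factor of the set, held 1 match, an E-box 106 to 101 bases before the start, printed in capitals from 5′ to 3′ on the strand of the gene.
Nr5a1: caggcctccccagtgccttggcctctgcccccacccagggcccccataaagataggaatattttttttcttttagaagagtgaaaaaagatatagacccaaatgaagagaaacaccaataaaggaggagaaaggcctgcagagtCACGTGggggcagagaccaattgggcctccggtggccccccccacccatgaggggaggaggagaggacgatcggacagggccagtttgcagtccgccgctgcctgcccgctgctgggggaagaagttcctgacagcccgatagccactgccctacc

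*Nr5a2* (1387573_a_at, Entrez 60349) encodes LRH-1, the receptor that GCs need for ovulation in the mouse. The log2 signal was 9.13 and 8.68 in EGFP arrays, 10.47, 10.37 and 9.42 in FSH arrays and 9.81, 10.06 and 9.6 in PKA-CQR arrays. No treated array fell into the EGFP range, but FSH replicate 3 lay below all PKA-CQR arrays and well below the other FSH arrays. *Nr5a2* rose 2.27-fold with FSH (1.18 ± 0.3, adjusted p = 0.0201), a call lost without EGFP replicate 2 (adjusted p = 0.133), FSH replicate 1 (0.0534) or FSH replicate 2 (0.0641) and larger without FSH replicate 3 (1.51, adjusted p = 0.000696). With PKA-CQR the log2 difference of 0.92 ± 0.3 was not called (adjusted p = 0.0888), although it was with the replicate number as a block (1.14, adjusted p = 0.0118), with that block as a random effect (0.99, 0.0395), with EGFP replicate 2 in the third culture (0.79, 0.0181), with the beta-actin covariate (1.22, 0.0006) and without FSH replicate 3 (adjusted p = 0.00883). PKA-CQR and FSH differed by -0.26 (-0.87 to 0.35, adjusted p = 0.718), and by -0.59 without FSH replicate 3 (adjusted p = 0.087). None of the 5 motifs was found in its start region, which says only that these letters are absent from that window.

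*Gata4* (1387894_at, Entrez 54254) encodes the GATA factor of GCs in growing follicles, which binds the promoters of aromatase, inhibin alpha and steroidogenic acute regulatory protein. Its log2 signal was 9.58 and 9.72 with EGFP, 10.86, 10.57 and 11.1 with FSH and 10.78, 10.58 and 11.07 with PKA-CQR. The FSH and PKA-CQR arrays of 1 number lay within 0.1 of each other, and all treated arrays lay above the EGFP arrays. *Gata4* rose 2.28-fold in FSH GCs (1.19 ± 0.17, adjusted p = 0.00125) and 2.23-fold in PKA-CQR GCs (1.16 ± 0.17, adjusted p = 0.00329). The difference of PKA-CQR from FSH was -0.03, with an interval of -0.39 to 0.32, that is ratios of 0.763 to 1.25 (adjusted p = 0.953).

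*Gata6* (1368827_at, Entrez 29300) encodes the related factor that rises as GCs become luteal cells in the mouse. The log2 signal was 10.08 and 9.75 in EGFP arrays, 10.65, 10.6 and 9.73 in FSH arrays and 9.84, 10.32 and 9.61 in PKA-CQR arrays. FSH replicate 3 lay at the level of the lower EGFP array while the other FSH arrays lay above both, and the PKA-CQR arrays spread beyond the EGFP range on both sides. The log2 difference was 0.41 ± 0.3 with FSH (-0.26 to 1.08, adjusted p = 0.37) and 0 ± 0.3 with PKA-CQR (-0.67 to 0.68, adjusted p = 0.995), with neither called. With FSH it was called with the replicate number as a block (0.64, adjusted p = 0.0459), with the beta-actin covariate (0.77, adjusted p = 0.0073) and without FSH replicate 3 (0.71, adjusted p = 0.049), and it was 0.24 (adjusted p = 0.278) with EGFP replicate 2 placed in the third culture. PKA-CQR and FSH differed by -0.4 (-1.01 to 0.2, adjusted p = 0.513), and by -0.7 without FSH replicate 3. The upper end of the FSH interval lies past a 2.00-fold rise.

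*Nr0b1* (1369478_at, Entrez 58850) encodes DAX-1, which represses SF-1 and LRH-1, and it was the only gene of the 7 that fell with FSH. Its log2 signal was 10.31 and 10.5 in EGFP arrays, 8.13, 7.38 and 7.9 in FSH arrays and 9.94, 9.17 and 9.38 in PKA-CQR arrays. The 3 groups did not overlap, with FSH lowest, EGFP highest and PKA-CQR between them, and 1.04 log2 units lay between the highest FSH and the lowest PKA-CQR array. *Nr0b1* fell 6.05-fold with FSH (log2 change -2.6 ± 0.26, interval -3.18 to -2.02, adjusted p = 0.000131), the 56th largest fall of the 13915 genes. With PKA-CQR the log2 difference was -0.91 ± 0.26 (-1.49 to -0.32), 34.8% of the log2 change with FSH, and it was not called (adjusted p = 0.0532). It was called with the replicate number as a fixed block (-0.9, adjusted p = 0.041) or a random one (-0.9, 0.0322), with EGFP replicate 2 in the third culture (-0.72, 0.018), and without FSH replicate 1 (0.0483), FSH replicate 2 (0.0335) or PKA-CQR replicate 1 (-1.12, 0.0229). Compared directly, the level was 3.23-fold higher in PKA-CQR than in FSH GCs (1.69 ± 0.23, interval 1.17 to 2.21, adjusted p = 0.00337), the 34th largest difference in that direction. This difference was 1.47 to 1.86 with any 1 array left out (adjusted p of 0.00585 to 0.0138).

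The start region of *Nr0b1* (chrX:54707408-54707707, plus strand, GRCr8) is shown because this gene separates FSH from PKA-CQR. It held 1 of the searched motifs, an Sp1 box 226 to 221 bases before the start, in capitals, and no E-box, CRE half-site, GATA core or NR5A half-site of these letters.
Nr0b1: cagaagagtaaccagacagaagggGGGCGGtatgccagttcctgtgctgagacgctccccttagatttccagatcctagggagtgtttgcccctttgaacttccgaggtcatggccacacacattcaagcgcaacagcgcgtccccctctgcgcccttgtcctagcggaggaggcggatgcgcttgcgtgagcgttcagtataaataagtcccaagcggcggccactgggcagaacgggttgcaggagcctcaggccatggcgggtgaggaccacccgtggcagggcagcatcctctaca

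*Nr0b2* (1368376_at, Entrez 117274) encodes SHP, the relative of DAX-1 that represses LRH-1 in the bile acid feedback of the liver. Its log2 signal was 6.04 and 6.89 in EGFP arrays, 7.88, 7.71 and 8.33 in FSH arrays and 7.25, 7.19 and 7.35 in PKA-CQR arrays. The 3 groups did not overlap, with EGFP lowest, PKA-CQR between and FSH highest, and the EGFP arrays spread more widely than the PKA-CQR arrays. *Nr0b2* rose 2.85-fold with FSH (1.51 ± 0.25, adjusted p = 0.00226). The PKA-CQR difference of 0.8 ± 0.25 from EGFP was not called (0.24 to 1.36, adjusted p = 0.0733), but it was without EGFP replicate 2 (1.23, adjusted p = 0.012), without FSH replicate 3 (0.046), with EGFP replicate 2 in the third culture (0.89, 0.0094) and with the beta-actin covariate (0.57, 0.0219). Without EGFP replicate 1, however, it was 0.38 (adjusted p = 0.438), and the FSH value was 1.08 without that array and 1.93 without EGFP replicate 2. The difference of PKA-CQR from FSH, -0.71 ± 0.22 (-1.21 to -0.21), was not called either (adjusted p = 0.112). It was called with EGFP replicate 2 in the third culture (-0.71, 0.0178) and with the beta-actin covariate (-0.64, 0.00937). EGFP signals do not enter this difference, so leaving out either EGFP array alters only the shared estimate of the spread, in the same way for both. One EGFP signal of 6.04 lies below 6.17, the level that the mean signals of 25% of all genes lie under, and the deposited signals carry no call of detection.

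The start region of *Nr0b2* (chr5:151062910-151063209, plus strand, GRCr8), shown beside that of its relative, held an E-box 193 to 188 bases before the start and an Sp1 box on the opposite strand 43 to 38 bases before it, both in capitals.
Nr0b2: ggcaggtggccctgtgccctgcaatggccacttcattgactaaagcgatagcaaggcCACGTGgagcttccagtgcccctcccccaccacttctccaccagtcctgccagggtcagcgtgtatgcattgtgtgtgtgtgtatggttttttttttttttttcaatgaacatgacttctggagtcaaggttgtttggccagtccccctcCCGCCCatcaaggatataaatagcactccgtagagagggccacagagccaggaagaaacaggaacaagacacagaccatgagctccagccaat

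*Giot1* (1368775_at, Entrez 171090) encodes the repressor GIOT1 and had the largest rise of the 7 genes with either treatment. The log2 signal was 7.66 and 7.25 in EGFP arrays, 10.12, 10.08 and 9.72 in FSH arrays and 9.73, 10.35 and 10.09 in PKA-CQR arrays. More than 2 log2 units separated the highest EGFP array from the lowest treated array, and the FSH and PKA-CQR arrays covered nearly the same range. *Giot1* rose 5.73-fold with FSH (2.52 ± 0.2, interval 2.06 to 2.98, adjusted p = 4.14e-05), the 55th largest rise of all genes, and 6.04-fold with PKA-CQR (2.59 ± 0.2, interval 2.14 to 3.05, adjusted p = 0.000137), the 32nd largest. With any 1 array left out, its log2 change was 2.31 to 2.72 with FSH and 2.39 to 2.8 with PKA-CQR. The direct difference was 0.08, and its interval of -0.33 to 0.49 spans ratios of 0.794 to 1.4 (adjusted p = 0.897).

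The start region of *Giot1* (chr7:10886916-10887215, minus strand, GRCr8) is shown because it held the most matches. CRE half-sites on the gene strand, 248 to 244 bases before the start, and on the opposite strand, 245 to 241 bases before it, overlap and together form a full CRE palindrome, and an NR5A half-site lies on the opposite strand 166 to 160 bases before the start. All 3 are in capitals. It was the only 1 of the 6 regions with an NR5A half-site or a CRE half-site, and no region held the GATA core.
Giot1: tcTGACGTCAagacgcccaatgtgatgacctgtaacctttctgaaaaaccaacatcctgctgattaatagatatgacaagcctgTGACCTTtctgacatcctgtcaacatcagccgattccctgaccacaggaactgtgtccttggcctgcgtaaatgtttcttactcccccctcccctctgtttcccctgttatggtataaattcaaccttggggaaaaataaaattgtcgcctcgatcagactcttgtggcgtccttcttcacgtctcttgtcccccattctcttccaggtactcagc

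**Figure D2:**
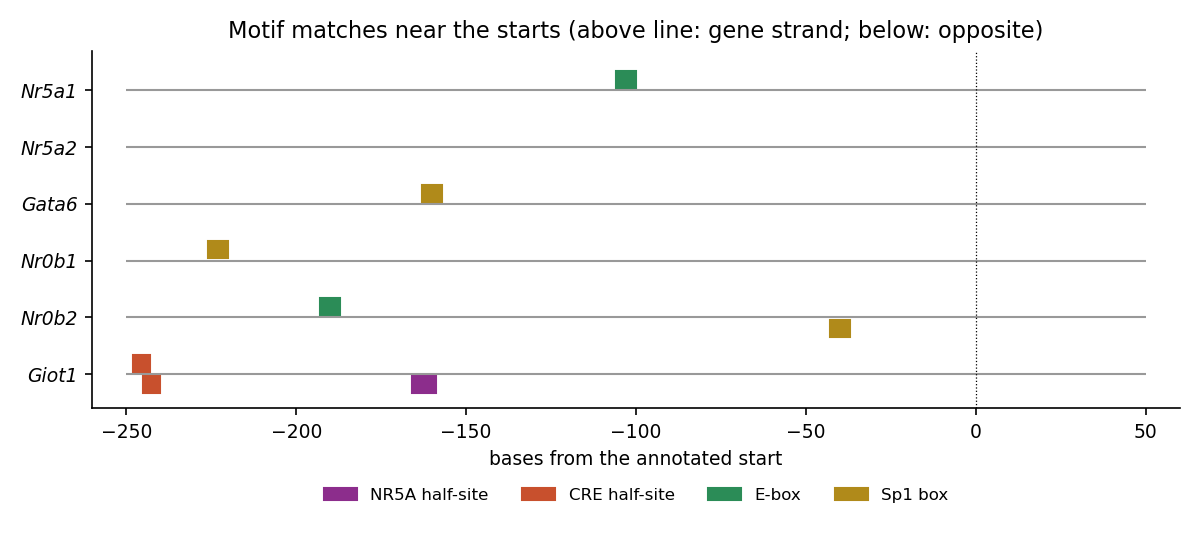
Position of each motif match (coloured boxes) on the 6 start regions that were read, in bases from the annotated start on the horizontal axis, with matches to the strand of the gene above each line and matches to the opposite strand below. *Giot1* carries the overlapping CRE half-sites near 245 bases and the NR5A half-site near 160 bases before the start, *Nr5a1* and *Nr0b2* carry an E-box, and *Nr5a2* carries none of the motifs.

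Set side by side, the log2 change with PKA-CQR was 103.1% of that with FSH for *Giot1*, 97.2% for *Gata4*, 84.1% for *Nr5a1* and 78% for *Nr5a2*, and 53% for *Nr0b2* and 34.8% for *Nr0b1*. Among these 6, the 2 lowest shares belong to the repressors of the nuclear receptor family, which had opposite directions with FSH, and PKA-CQR arrays lay between the EGFP and FSH arrays for both. The share of *Nr0b1* was 28.6% to 43.3% with any 1 array left out, while that of *Nr0b2* was 34.6% without EGFP replicate 1 and 63.4% without EGFP replicate 2, and without FSH replicate 3 *Nr5a2* and *Nr0b2* were nearly level, at 60.9% and 60.1%. The direct difference was called for *Nr0b1* alone and not for *Nr0b2*. A share of 1.2% for *Gata6* rests on an FSH difference that was itself not called. All shares use the same 2 EGFP arrays on both sides of the ratio. The stimuli also differ in timing. The paper describes FSH signaling as rapid and transient, while PKA-CQR activity builds up as the virus is expressed. The part of this difference in the shares was not tested.

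**Figure D3:**
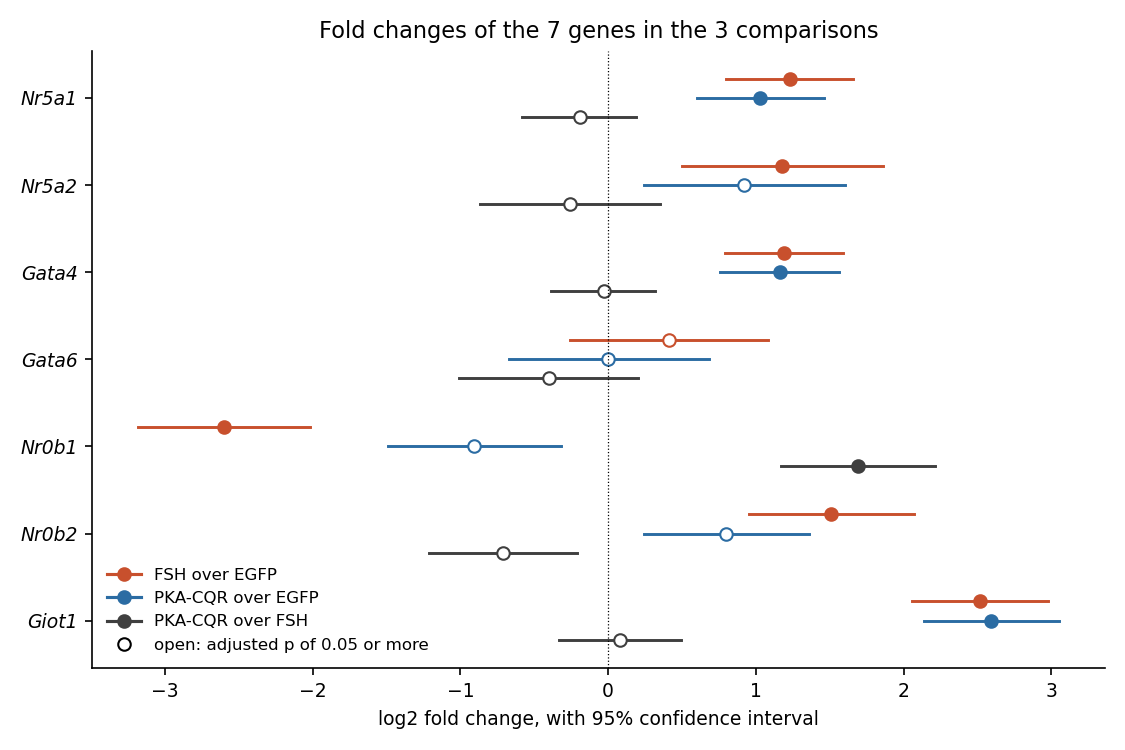
Log2 fold change (horizontal axis) with its 95% confidence interval for the 7 genes in the comparisons of FSH with EGFP, PKA-CQR with EGFP and PKA-CQR with FSH, filled where the adjusted p was under 0.05. *Nr0b1* is at -2.6 with FSH, -0.91 with PKA-CQR and 1.69 between PKA-CQR and FSH, the only filled point of the last comparison.

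Part of the spread within groups was shared between arrays. In FSH replicate 3, PKA-CQR replicate 3 and EGFP replicate 2, *Nr5a1* lay 0.31, 0.26 and 0.17 above its group mean and *Gata4* lay 0.26, 0.26 and 0.07 above. *Nr5a2* and *Gata6* had the opposite pattern. *Nr5a2* deviated by -0.67, -0.22 and -0.23 in those arrays and *Gata6* by -0.6, -0.31 and -0.17. EGFP replicate 2 and FSH replicate 3 deviated in the same direction for 7 of the 7 genes, EGFP replicate 2 and PKA-CQR replicate 3 for 5 and FSH and PKA-CQR replicate 3 for 5, while over all genes 66.1%, 60.5% and 68.6% did so. FSH and PKA-CQR replicate 2 also agreed for 7, and EGFP and FSH replicate 1 for 5, beside 63.9% and 62.5% of all genes. PKA-CQR replicate 1 agreed for 3 with FSH replicate 1 and for 3 with EGFP replicate 1 (54% and 50.9%). EGFP replicate 2 agreed for 0 with FSH or PKA-CQR replicate 2 (39% and 37.3%). In groups of 2 or 3 the deviations sum to 0, so the arrays of a group are not independent here, and the part of culture, RNA integrity or numbering in this pattern was not tested.

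**Figure D4:**
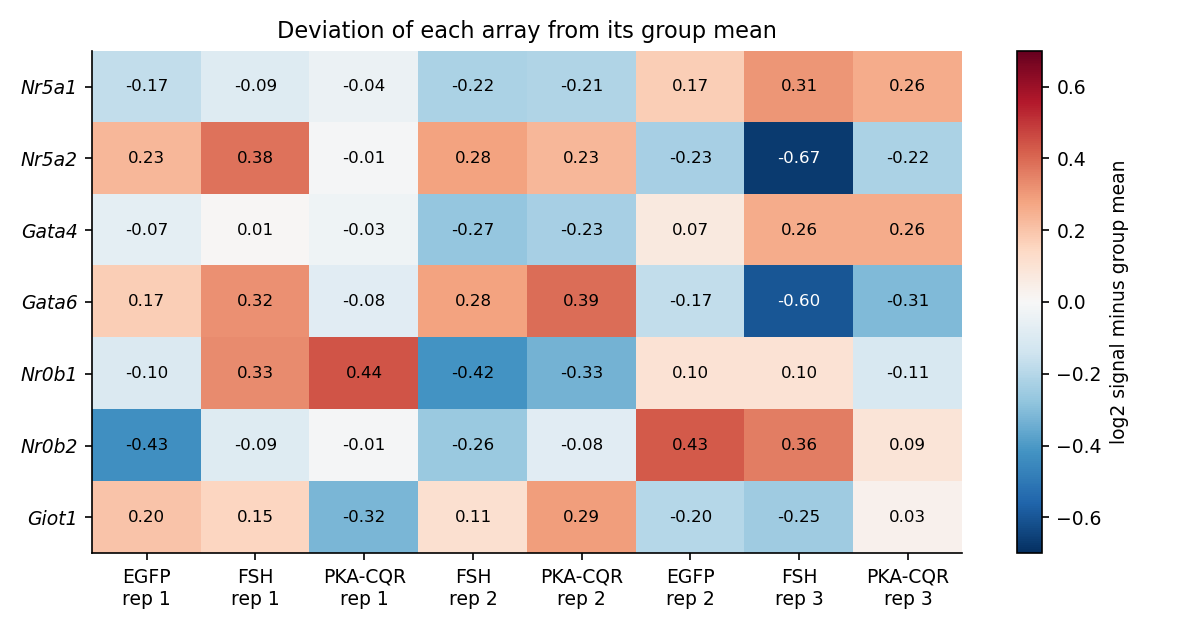
Log2 signal of each of the 7 genes (rows) in each array (columns, ordered with EGFP replicate 2 beside the replicate 3 arrays) minus the mean of its group, with red above and blue below the mean. The lowest cells are FSH replicate 3, at -0.67 for *Nr5a2* and -0.6 for *Gata6*.

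Genes known to be bound or driven by SF-1, LRH-1 or GATA factors in steroid-making tissues, pituitary or liver were followed beside the 7. Of 36 listed targets 29 were measured, and 19 of them (65.5%) rose and 0 fell with FSH (20 higher and 0 lower at an unadjusted p under 0.05). Of all genes, 13.4% rose and 12.1% fell with FSH. The median log2 change was 0.94 for the targets against 0.06 over all genes. With PKA-CQR 19 (65.5%) rose and 0 fell as well (20 and 0 unadjusted), against 6.48% and 6.02% of all genes, with a median of 0.82 against 0.03. *Cyp11a1*, the side-chain cleavage enzyme that starts steroid synthesis, had log2 signals of 7.28 and 8.38 in EGFP arrays, 13.66, 13.7 and 13.47 in FSH arrays and 12.99, 13.26 and 13.09 in PKA-CQR arrays. The rise was 55-fold for FSH (5.78 ± 0.27, adjusted p = 3.29e-06) and 39-fold for PKA-CQR (5.29 ± 0.27, adjusted p = 1.23e-05). *Cyp19a1*, aromatase, had log2 signals of 4.84 and 6.29 in EGFP arrays, 10.72, 9.86 and 11.04 in FSH arrays and 11.71, 11.47 and 11.73 in PKA-CQR arrays. It rose 31.5-fold and 67.3-fold (adjusted p = 6.32e-05 and 8.08e-05), but 19-fold and 40.6-fold without EGFP replicate 1 and 52.2-fold and 111-fold without EGFP replicate 2. *Lhcgr*, the receptor for LH, rose 26.8-fold and 41.2-fold (adjusted p = 1.07e-05 and 1.63e-05) from EGFP signals of 5.75 and 5.92. These *Lhcgr* signals and 1 of the *Cyp19a1* signals lie under 6.17, the level that the mean signals of 25% of all genes lie under. They were not shown to be above background, so these folds are ratios of RMA signals only. The 10 targets that were not called with either treatment include *Amh* and *Gnrhr* and genes best known from other tissues, among them *Cyp7a1* and *Cyp8b1* of hepatic bile acid synthesis, *Abcg5* and *Abcg8*, *Lhb* of the pituitary and *Cyp21a1* of the adrenal. The list was written from general knowledge, with results of these data known, and the members of a target list do not measure binding of any factor.

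Between the treatments, 1 target (3.45%) was higher and 3 (10.3%) were lower in PKA-CQR than in FSH GCs, against 3.95% and 2.96% of all genes. The median difference was -0.09 against -0.02 over all genes. *Cga*, the common alpha subunit of the pituitary glycoprotein hormones, had log2 signals of 5.65 and 5.63 with EGFP, 6.43, 6.41 and 6.62 with FSH and 8.01, 7.62 and 7.65 with PKA-CQR. It was 2.42-fold higher with PKA-CQR than with FSH (adjusted p = 0.000571). *Fdxr*, the reductase that feeds electrons to mitochondrial steroid hydroxylases, had log2 signals of 11.7, 11.69 and 11.63 in FSH arrays and 10.45, 10.46 and 10.55 in PKA-CQR arrays, a 2.28-fold lower level (adjusted p = 0.000598). *Mrap*, the accessory protein of the ACTH receptor, was 1.8-fold lower (adjusted p = 0.000344), and *Scarb1*, the receptor that takes up cholesteryl esters from HDL, was 1.34-fold lower (adjusted p = 0.0487), a call lost without any 1 of the 6 treated arrays (adjusted p of 0.0614 to 0.181). The EGFP signals of *Cga* lie under 6.17. The treated groups of all 4 genes lay above the EGFP arrays.

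**Figure D5:**
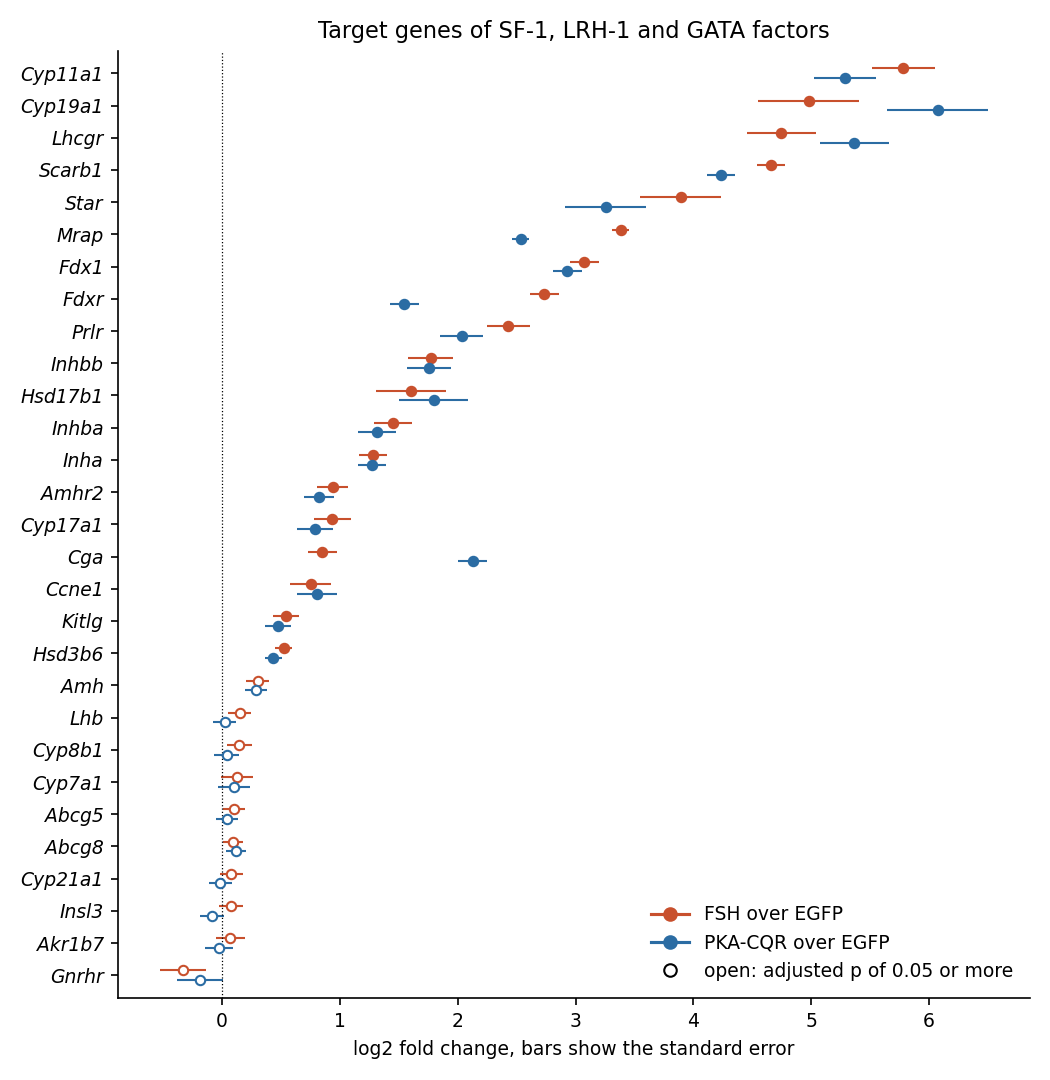
Log2 fold change with its standard error for the 29 measured target genes (rows, ordered by the FSH value) with FSH and with PKA-CQR over EGFP, filled where the adjusted p was under 0.05. All 19 filled genes are filled in both comparisons, from *Hsd3b6* up to *Cyp11a1*, and *Cga* and *Fdxr* are among those with the widest distance between the treatments.

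Of the coactivators and corepressors that SF-1, LRH-1, DAX-1, SHP and the GATA factors work with, 28 of 31 were measured. FSH raised 2 of the 28 and lowered 4, that is 7.14% and 14.3%, against 13.4% and 12.1% of all genes. PKA-CQR raised 1 and lowered 3, that is 3.57% and 10.7%, against 6.48% and 6.02% of all genes. The median log2 changes were 0 and -0.01, against 0.06 and 0.03 over all genes. *Zfpm2* encodes FOG2, the zinc finger partner that binds GATA4 and GATA6. Its log2 signal was 11.22 and 11.39 in EGFP arrays, 9.85, 9.96 and 10.37 in FSH arrays and 10.63, 10.46 and 11 in PKA-CQR arrays, so that PKA-CQR lay between the other groups. It fell 2.37-fold with FSH (-1.25 ± 0.19, adjusted p = 0.00145), and the PKA-CQR value of -0.61 was not called (adjusted p = 0.0733), except without FSH replicate 3 (0.0352) or PKA-CQR replicate 3 (-0.76, 0.0336). *Cited2*, a coactivator that SF-1 uses in adrenal development of the mouse, fell 1.73-fold with FSH (adjusted p = 0.000741) and 1.48-fold with PKA-CQR (adjusted p = 0.00866, and 0.0723 without EGFP replicate 1). *Ppargc1b*, a coactivator of nuclear receptors, fell 1.53-fold and 1.47-fold (adjusted p = 0.00183 and 0.00646), and *Cited1* fell 1.33-fold with PKA-CQR (adjusted p = 0.0448) and 1.38-fold with FSH (adjusted p = 0.0155). *Hdac3*, a histone deacetylase of corepressor complexes, rose 1.21-fold with FSH (adjusted p = 0.0396) and was 0.17 higher in log2 units with PKA-CQR (adjusted p = 0.268). The FSH call of *Hdac3* was lost without EGFP replicate 2 (0.19, adjusted p = 0.23), FSH replicate 2 or 3 (0.123 and 0.0628) or any 1 PKA-CQR array (0.0624 to 0.0647), and those of *Cited1* without EGFP replicate 1 or 2 or FSH replicate 2 for FSH (0.0539 to 0.0797) and without any 1 array other than PKA-CQR replicate 1 for PKA-CQR (0.0528 to 0.189). Between PKA-CQR and FSH limma called 0 of the 28, where 3.95% of all genes were higher and 2.96% were lower. At an unadjusted p under 0.05, 3 of the 28 were higher and 0 lower.

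The DNA-binding partners and regulators, all 31 measured, had 7 rises (22.6%) and 4 falls (12.9%) with FSH, against 13.4% and 12.1% of all genes. With PKA-CQR there were 5 rises (16.1%) and 4 falls (12.9%), against 6.48% and 6.02% of all genes. The median log2 changes were 0.05 and 0.02, against 0.06 and 0.03 over all genes. *Gata3*, a further GATA factor, had log2 signals of 7.07 and 7.25 in EGFP arrays, 5.37, 5.49 and 5.65 in FSH arrays and 5.73, 6.11 and 5.55 in PKA-CQR arrays. It fell 3.15-fold in FSH GCs and 2.57-fold in PKA-CQR GCs (adjusted p = 0.000116 and 0.000968), opposite in direction to *Gata4*. All 6 treated signals of *Gata3* lie under 6.17 and were not shown to be above background. *Gata1*, *Gata2* and *Gata5* were not called in any comparison. *Crem*, a cAMP-responsive factor whose gene makes activators and the repressor ICER, rose 3.3-fold and 3.96-fold (adjusted p = 3.3e-06 and 3.6e-06), and *Nr4a1*, an orphan receptor whose DNA motif resembles that of SF-1, rose 3.11-fold and 3.88-fold (adjusted p = 2.12e-05 and 2.4e-05). *Nr1h3*, the oxysterol receptor LXR alpha, rose 2.44-fold and 1.97-fold (adjusted p = 0.000394 and 0.00408) from EGFP signals of 5.71 and 5.97, and *Wt1*, an activator of *Nr5a1* in the mouse gonad, fell 1.44-fold and 1.45-fold (adjusted p = 0.00242 and 0.00481, the latter 0.0519 without EGFP replicate 1). The EGFP signals of *Nr1h3* lie under 6.17 and were not shown to be above background. *Nr4a3*, a relative of *Nr4a1*, rose 1.8-fold in FSH GCs and 4.2-fold in PKA-CQR GCs (adjusted p = 0.000647 and 1.52e-05). Of the 31, 3 (9.68%) were higher and 0 lower in PKA-CQR than in FSH GCs, against 3.95% and 2.96% of all genes. The 3 were *Nr4a3* by 2.33-fold (adjusted p = 0.000389), *Foxo1* by 1.52-fold (0.00823) and *Tcf7l2* by 1.43-fold (0.00791). At an unadjusted p under 0.05, 6 were higher and 2 lower. *Foxo1*, a factor that FSH restrains in GCs, had fallen 2.14-fold in FSH GCs and 1.41-fold in PKA-CQR GCs (adjusted p = 0.000142 and 0.019, the latter lost at 0.0907, 0.0949 and 0.0687 without EGFP replicate 1, EGFP replicate 2 or PKA-CQR replicate 2), and *Tcf7l2*, a partner of beta-catenin, had fallen 2.18-fold in FSH GCs and 1.52-fold in PKA-CQR GCs (adjusted p = 5.44e-05 and 0.00388).

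The genes whose log2 signal followed each of the 7 most closely over the 8 arrays were found by Pearson's r, as a description, since the arrays share their treatments and the EGFP controls. The 3 closest to *Nr5a1* were *LOC688328*, *Bckdhb* and *Myct1* (r of 0.993, 0.991 and 0.99), and those given for *Nr5a2* are *Idh3g* and *Vcp* (0.993 and 0.982). *Gata4* was followed by *Hagh*, *Lama4* and *Gnb5* (0.993, 0.993 and 0.992) and *Gata6* by *Atp6ap1*, *Oxr1* and *Eid2b* (0.984, 0.976 and 0.973). Among the repressors, *Nr0b1* had *Akr1b1*, *Samd11* and *Ptprd* (0.995, 0.992 and 0.991), *Nr0b2* had *Exosc5*, *Tmem218* and *Fbxo16* (0.988, 0.988 and 0.987) and *Giot1* had *Cldn10*, *Cct6a* and *Skiv2l2* (0.995, 0.992 and 0.99). No gene named here was given for more than 1 of the 7, and none of the 7 was given for another.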

How the data were processed

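Total RNA of 8 cultures was hybridized to Affymetrix rat genome arrays. The authors deposited log2 signals from RMA, which corrects background, gives all arrays the same quantiles and combines the probes of each set, and whose version and chip definition are not given in the sources used here. Quantile normalization removes shifts that all genes of an array share. The MAS5.0 normalization that the methods name was not used here. The complete table holds 31099 probe sets, of which 57 are Affymetrix controls and 17128 others carry no symbol. The 13915 named ones, a control with a symbol among them, were tested. The authors' second table repeats these, and 0 of its 111320 values differ.

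Comparisons were fitted with limma 3.58.1 (lmFit and eBayes) in R 4.3.3 over all 8 arrays and 3 groups, two-sided, with no filter. Adjustment was by Benjamini-Hochberg over 13915 genes, with calls at under 0.05. The fit was tested on simulated data. The number of arrays limits the precision, and replicates are biological per the labels, so p-values measure the spread between these cultures.

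The 7 genes and all gene lists, 154 symbols of which 136 were measured, were chosen with earlier results of these data known. Named genes are the 7, in each list of targets, cofactors and partners the 3 called genes that rose most and the 3 that fell most in a comparison, and for each of the 7 the 3 genes with the highest Pearson's r. A gene that the rule names in the cofactor list, and another among those of *Nr5a2*, are not reported here. *Gata1*, *Gata2*, *Gata5* and the targets named as not called are not covered by this rule and were picked with their values seen. Of the other marker lists, the means of the measured endothelial (8 of 9), oocyte (5 of 10) and surface epithelium genes (7 of 8) were 5.91 to 6.11, 5.97 to 7.22 and 6.18 to 6.63 over all arrays.

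The main fit is unpaired. For the block, replicate numbers were read as culture groups, since the methods have 3 independent preparations of GCs for the treatments. Between same-numbered FSH and PKA-CQR arrays, deviations from the group mean had correlations of 0.23, 0.44 and 0.62, and those with EGFP replicate 1 were 0.42 and 0.13 and with EGFP replicate 2 -0.27 and -0.32. In the labels, the array code of EGFP replicate 2 stands between those of PKA-CQR replicate 2 and FSH replicate 3. The text of the study places the controls in its first and second culture groups, as the numbers do. Both placements were run.

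Alternatives were the replicate number as a fixed or random block, 2 other scalings, the brighter genes only, all probe sets, array weights, other models of the variance, the t-test of the methods and omission of each array. Omitting an array from a group outside a comparison keeps the log2 change and alters only the shared estimate of the spread and the adjustment. Start regions came from RefSeq (GRCr8) by Entrez gene number. The first region listed for a gene was read, and any further starts of that gene were not. The files name no genome build.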

Additional observations from a re-analysis of the deposited data

How the results depend on the processing

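Under the alternatives, the direction of *Nr5a1*, *Nr5a2*, *Gata4*, *Nr0b1*, *Nr0b2* and *Giot1* over EGFP did not change with either treatment. Signs turned only for differences near 0 (for 1 array left out, *Gata6* with PKA-CQR -0.19 to 0.17, *Gata4* between PKA-CQR and FSH -0.17 to 0.09 and *Giot1* -0.07 to 0.24). *Gata6* with PKA-CQR was -0.02 with arrays centred on their medians, 0 after a second quantile normalization and -0.16 with EGFP replicate 2 in culture group 3, *Gata4* between PKA-CQR and FSH was 0.13 with array weights and 0 with the beta-actin covariate, and *Giot1* there was -0.01 with array weights. Of the 7 genes, 6 were called with FSH, 3 with PKA-CQR and 1 between the treatments, and leaving out 1 array gave 5 to 7, 2 to 5 and 1 to 2. The highest PKA-CQR count of 5 came without FSH replicate 3. The upper end between treatments came without EGFP replicate 1 or 2. For this comparison these omissions are the same fit, because EGFP signals enter only the estimate of the spread. The replicate block, fixed or random, gave 5 for PKA-CQR and changed no call of the 7 other than those given with the results, the block with EGFP replicate 2 in culture group 3 gave 6 for PKA-CQR and 2 between treatments, and the beta-actin covariate gave 5 and 2. Without variance moderation 0 of the 7 were called between treatments. There *Nr0b1* had an adjusted p of 0.0604, *Nr5a1* with PKA-CQR one of 0.0659 and *Nr5a2* with FSH one of 0.0966. *Nr0b1* with PKA-CQR was called among the brighter genes alone (adjusted p = 0.0462) and with a variance trend (0.0493), and *Nr5a2* with array weights (0.041). The methods' t-test called 0, 0 and 0 of the 7 at its unadjusted threshold of 0.001 and 1 (*Giot1*), 0 and 0 after adjustment. Calls over all 13915 genes moved as well. With PKA-CQR the main fit called 902 higher and 837 lower, the t-test 138 and 74 unadjusted and 39 and 14 adjusted. The beta-actin covariate gave 1368 and 1127 there, and the block with EGFP replicate 2 in culture group 3 gave 1321 and 1178. With FSH the adjusted t-test called 422 and 376, against 1868 and 1680 in the main fit.

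Of the targets, 19 were called with FSH and 19 with PKA-CQR, and 18 to 20 and 16 to 19 with 1 array left out. The methods' t-test gave 5 and 6 unadjusted and 8 and 2 adjusted, and 2 between the treatments where limma gave 4, with 3 to 5 for 1 array left out and 7 under the block with EGFP replicate 2 in culture group 3. Of the 59 cofactors and partners together, 17, 13 and 3 were called. With 1 array left out these were 14 to 18, 8 to 14 and 3 to 5, the 8 without EGFP replicate 1 and the 5 without FSH replicate 3. The t-test gave 4 with FSH and 4 with PKA-CQR unadjusted and 6, 1 and 1 adjusted. With PKA-CQR the brighter genes alone gave 8 of the 35 then tested, where 718 of all 6957 brighter genes rose and 639 fell. Between treatments the replicate block and the random replicate block gave 5, no variance moderation 1 and array weights 8. The block with EGFP replicate 2 in culture group 3 gave 6 there and the beta-actin covariate 7. Between treatments, the main fit called 550 of all genes higher and 412 lower. Array weights gave 1043 and 998 there, and no variance moderation gave 215 and 138. The cause of these shifts was not tested. Other probe sets of the same genes could not be tried, because the annotation gives each 1, and among the brighter genes *Nr0b2* had no value. Dim signals, such as *Nr0b2* in EGFP arrays, limit how well low levels are told apart.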
